A study of Mus musculus with 6 samples.

Results

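The 10 genes described here form the oxygen-sensing circuit around the Egln prolyl hydroxylases: the hydroxylases Egln1, Egln2 and Egln3, the hypoxia-inducible transcription factor subunits Hif1a, Epas1 and Arnt, the regulators Vhl and Hif1an, and the hypoxia-responsive genes Ndrg1 and Car9. They were taken as all probe sets of an Affymetrix mouse array whose platform symbol was one of these names, which gave 27 probe sets for 10 of the 18193 genes on the array. The set was picked because Egln3 stood higher in lungs with receptor on smooth muscle than in IL4R KO lungs, so the difference between those groups is a description here and carries no test. Whole lung RNA came from adult BALB/c mice of 3 genotypes, all of which were given 2 to 3 µg of IL-13 into the trachea daily for 7 days and killed 24 hours after the last dose. IL-13, a cytokine of allergic airway disease, acts by way of the IL-4 receptor alpha chain. IL4R KO + SMP8-IL4R mice were IL4R -/- with an SMP8-IL4R transgene (+/-), whose promoter was described by the submitters as active specifically in smooth muscle. IL4R KO mice were IL4R -/- without the transgene, and WT mice were IL4R +/+ without it. There were 2 arrays per genotype, every one made from pooled RNA of 4 mice, and no group went without IL-13, so no value here is set against untreated lung. All values are log2 values, the genotypes are those of the labels, and p-values rest on the spread between pools. The receptor gene Il4ra had values of 9.98 and 9.84 in IL4R KO + SMP8-IL4R, 9.35 and 9.55 in IL4R KO, and 9.64 and 9.81 in WT in its brightest of 3 probe sets. Another probe set had 8.94 and 8.80 in IL4R KO + SMP8-IL4R, 8.92 and 8.93 in IL4R KO, and 9.23 and 9.29 in WT, with both IL4R -/- genotypes below WT. In the third, the dimmest, IL4R KO overlapped both other groups. The gene was therefore read in IL4R KO lungs too, and since which part of the gene the probe sets read is not given in the sources used here, these values do not settle the genotypes.

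In cells with enough oxygen, Egln enzymes hydroxylate prolines of the Hif1a and Epas1 proteins, the ubiquitin ligase subunit Vhl binds the hydroxylated proteins, and they are degraded. With enough oxygen Hif1an also adds a separate hydroxyl group that keeps coactivators away. When oxygen is short the alpha subunits persist, pair with Arnt and turn on genes of glycolysis, vessel growth and acid handling. Most of this control acts on protein stability, which RNA values do not measure. In lung, Epas1 is abundant in endothelium and alveolar type 2 cells. Egln3 is itself switched on by hypoxia in many cells, and its rat counterpart was first cloned from vascular smooth muscle cells.

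Egln3 differed between the genotypes by more than 2-fold, while the brightest probe sets of the other 9 genes ranged over at most 0.42 log2 units across the 6 arrays. Dimmer probe sets ranged over up to 0.60 in Ndrg1 and 0.59 in Hif1an, and Egln3 was chosen for a difference between these groups. In its brightest probe set the log2 values were 8.33 and 8.28 in the IL4R KO + SMP8-IL4R pools, 7.22 and 7.12 in the IL4R KO pools, and 8.77 and 8.75 in the WT pools. The other Egln3 probe set gave 8.16 and 8.24 in IL4R KO + SMP8-IL4R, 6.61 and 7.15 in IL4R KO, and 8.48 and 8.36 in WT. In both probe sets the 3 groups did not overlap, with WT highest, transgenic lungs next and IL4R KO lungs lowest. The mean of the brightest was 8.31 ± 0.04 (SD, n = 2) in IL4R KO + SMP8-IL4R lungs, 7.17 ± 0.07 (n = 2) in IL4R KO lungs, and 8.76 ± 0.01 (n = 2) in WT lungs. The IL4R KO level lay close to 7.10, the median of all values on the arrays, and the WT level near the upper quartile of 8.98.

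The bases upstream of 3 of these genes are printed to set Egln3, which varied, beside its relative Egln1 and the hypoxia marker Car9, which varied little. Each window runs from 250 bases before to 50 bases after a RefSeq start site of build GRCm38.p6, given on the gene's strand from 5′ to 3′, and lies at chr12:54203825-54204124 (minus strand) for Egln3, chr8:124949205-124949504 (minus strand) for Egln1 and chr4:43506776-43507075 (plus strand) for Car9. Capitals mark the core letters of the hypoxia response element, searched as ACGTG or GCGTG on either strand, so that the other strand reads CACGT or CACGC.
Egln3: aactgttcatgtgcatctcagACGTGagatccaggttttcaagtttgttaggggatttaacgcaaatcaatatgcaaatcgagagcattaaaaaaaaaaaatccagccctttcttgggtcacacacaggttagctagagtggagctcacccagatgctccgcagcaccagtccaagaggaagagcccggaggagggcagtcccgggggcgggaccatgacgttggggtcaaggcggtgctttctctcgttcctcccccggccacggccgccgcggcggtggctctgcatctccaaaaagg
Egln1: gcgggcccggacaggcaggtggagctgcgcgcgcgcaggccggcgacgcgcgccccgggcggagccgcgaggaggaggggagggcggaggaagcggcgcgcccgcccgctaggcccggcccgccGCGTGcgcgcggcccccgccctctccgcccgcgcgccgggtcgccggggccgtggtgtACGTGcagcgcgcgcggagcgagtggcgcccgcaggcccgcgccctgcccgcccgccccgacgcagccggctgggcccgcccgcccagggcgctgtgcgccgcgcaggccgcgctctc
Car9: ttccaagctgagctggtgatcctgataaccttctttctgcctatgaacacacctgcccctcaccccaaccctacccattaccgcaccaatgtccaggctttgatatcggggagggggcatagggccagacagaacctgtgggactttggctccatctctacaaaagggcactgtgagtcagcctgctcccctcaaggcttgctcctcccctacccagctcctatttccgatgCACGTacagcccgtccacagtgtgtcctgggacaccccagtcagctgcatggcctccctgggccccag
The match began 229 bases before the start site in Egln3, 126 and 68 bases before it in Egln1, and 18 bases before it in Car9. Of the 10 genes, 8 had such windows, 9 in all because Egln2 had more than 1, and 7 of the 9 held a match. Among all 32851 windows of this length 43.8% held one, so a match alone sets none of these genes apart. The windows of Vhl and Hif1an held none, and Hif1a and Egln2 had matches that overlap on opposite strands. No window held a CArG box, the binding motif of serum response factor in smooth muscle promoters, which was present in 1.6% of all windows.

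**Figure D1:**
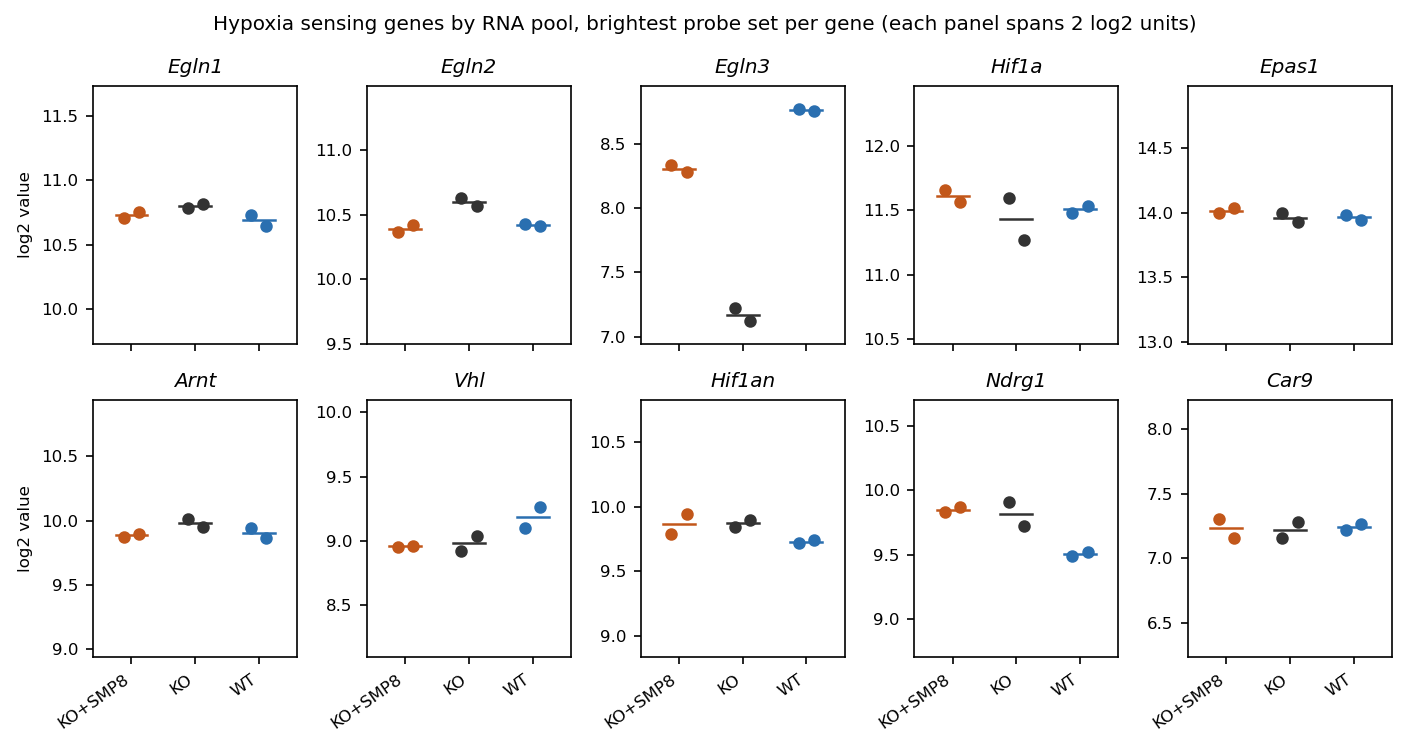
Log2 values (y axis) of the brightest probe set of each of the 10 genes in the 2 pools of IL4R KO + SMP8-IL4R (KO+SMP8), IL4R KO (KO) and WT, where points are arrays and lines are group means. Every panel spans the same height. Only in the Egln3 panel does a group, IL4R KO, lie over 1 log2 unit from the others, with means of 8.31, 7.17 and 8.76. Egln3 was chosen for a difference between these groups.

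Setting IL4R KO against WT shows how each gene stood without the native receptor under IL-13. Egln3 was the 1 of the 10 genes that passed. At an unadjusted p under 0.05 by limma there were 4 of the 10, Egln3 included. The share over all genes at that level is not given here, so this count shows no excess. Egln3 fell by 1.59 on the log2 scale in IL4R KO (95% interval -1.75 to -1.43, limma adjusted p = 0.000327 over 11861 genes), to 0.332 times the WT level. Over all genes tested, 4.7% passed in this comparison and 2.77% were lower in IL4R KO. These IL4R KO arrays also served in the comparison by which Egln3 was chosen, so its difference from WT is not independent of that choice. The other probe set fell by 1.54 (SE 0.17, limma adjusted p = 0.0105 over 45037 probe sets, of which 1.58% passed). Without any 1 of the 6 arrays the difference of the brightest probe set stayed between -1.64 and -1.54 and passed.

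The transgenic lungs lay between the other groups. Egln3 was 1.13 higher in IL4R KO + SMP8-IL4R than in IL4R KO by the brightest probe set and 1.32 higher by the other, which is the contrast that chose it. Of all genes 0.101% passed there, and 1 of the 10, Egln3, was among them, which follows from the choice and is read as no test. Against WT, Egln3 was lower by -0.46 in IL4R KO + SMP8-IL4R (95% interval -0.61 to -0.30, limma adjusted p = 0.0253), again as 1 of the 10 genes, with 2.84% passing among all genes. The transgenic arrays are those by which the gene was chosen, so this difference is not independent of the choice either. This last call did not hold with the median of the probe sets (-0.34, limma adjusted p = 0.130), over all probe sets (adjusted p = 0.0552), without IL4R KO pool 1 and WT pool 2 together (-0.46, adjusted p = 0.0558) or without any 1 of the transgenic or WT pools (-0.43 to -0.48, adjusted p from 0.145 to 0.243). The other probe set differed by -0.22 (SE 0.17, limma adjusted p = 0.583) and did not pass.

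Egln1, the hydroxylase that sets the activity of hypoxia-inducible factors in most tissues, was bright and nearly level. Its log2 values were 10.70 and 10.76 in IL4R KO + SMP8-IL4R, 10.79 and 10.82 in IL4R KO, and 10.73 and 10.65 in WT. Its difference between IL4R KO and WT was 0.11 (95% interval -0.04 to 0.27, limma adjusted p = 0.361), and a second probe set gave 0.14. Egln2, the family member that hypoxia does not induce, had values of 10.37 and 10.42 in IL4R KO + SMP8-IL4R, 10.63 and 10.57 in IL4R KO, and 10.43 and 10.41 in WT. Both IL4R KO pools lay above all other arrays, the opposite order to Egln3, but the difference of 0.18 from WT (95% interval 0.03 to 0.33) did not pass (limma adjusted p = 0.160). The transgenic lungs differed from IL4R KO by -0.21 in Egln2 and -0.07 in Egln1, and from WT by -0.03 and 0.04.

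**Figure D2:**
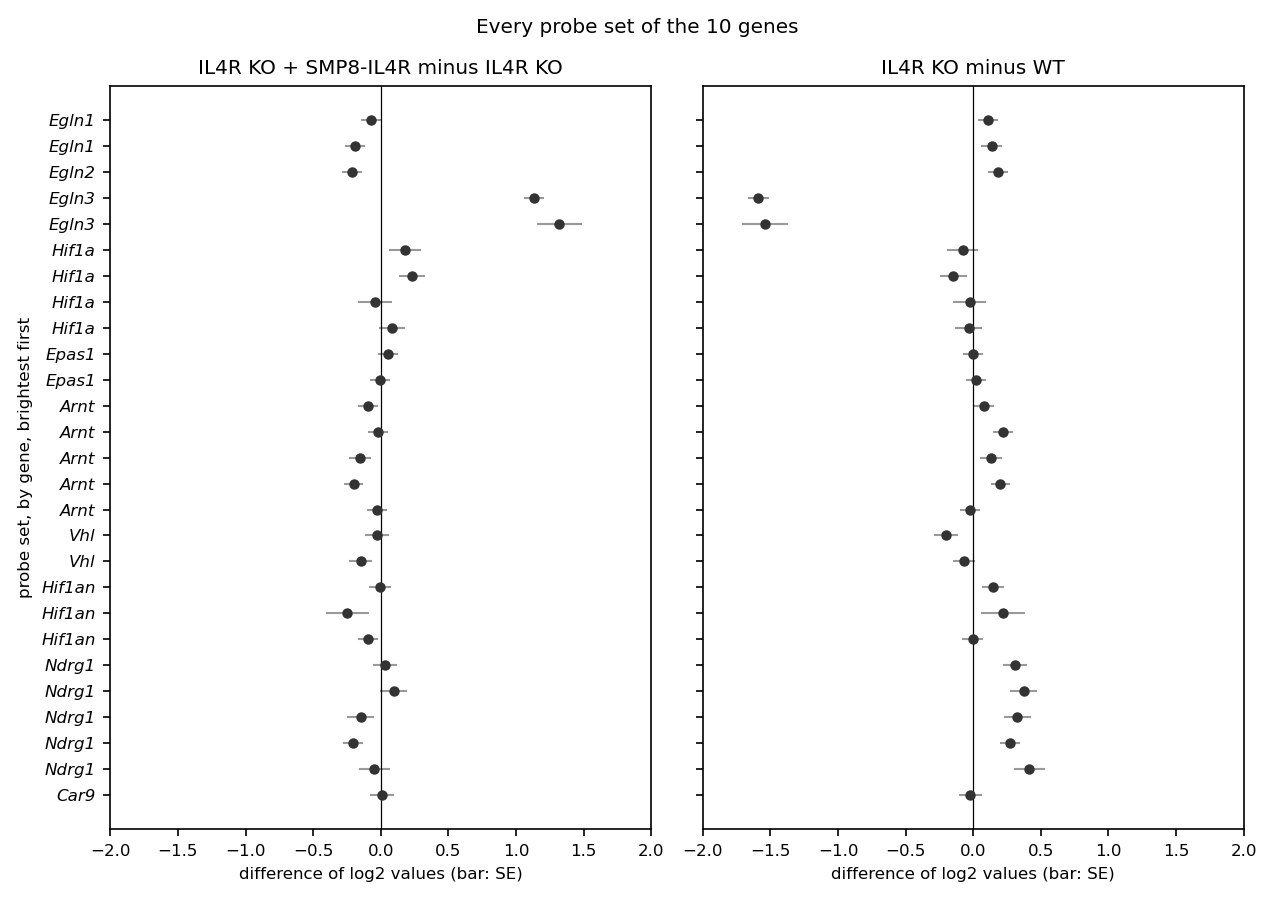
Difference of log2 values (x axis, bars are SE) for all 27 probe sets of the 10 genes (y axis, brightest first within a gene), as IL4R KO + SMP8-IL4R minus IL4R KO on the left and IL4R KO minus WT on the right. The 2 Egln3 probe sets lie at 1.13 and 1.32 on the left and at -1.59 and -1.54 on the right, while no other probe set is farther from 0 than 0.41. The contrast on the left is the one by which Egln3 was chosen.

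Of the transcription factor subunits, none passed in either comparison with WT. Epas1, an alpha subunit, had log2 values of 14.00 and 14.04 in IL4R KO + SMP8-IL4R, 14.00 and 13.93 in IL4R KO, and 13.98 and 13.94 in WT. Its mean was brighter than 99.9% of the probe sets on the array, and its range over the 6 arrays was smaller than that of all but 3.00% of them. A second Epas1 probe set, with a mean of 12.17, ranged over 0.07 log2 units. RMA values near the top of the scale can be compressed, and its part in these small ranges was not tested. The interval of the IL4R KO difference from WT was -0.15 to 0.15 (limma adjusted p = 0.995). Hif1a, the other alpha subunit, had 11.66 and 11.57 in IL4R KO + SMP8-IL4R, 11.59 and 11.27 in IL4R KO, and 11.48 and 11.54 in WT. The IL4R KO pools lay on both sides of the WT pools, and the difference of -0.08 had a wider interval of -0.35 to 0.20 (limma adjusted p = 0.735). A second Hif1a probe set, whose IL4R KO pools lay below the WT pools, differed by -0.15 (limma adjusted p = 0.512 over 45037 probe sets). Arnt, the shared partner, had 9.87 and 9.90 in IL4R KO + SMP8-IL4R, 10.01 and 9.95 in IL4R KO, and 9.94 and 9.87 in WT, with a difference of 0.08 between IL4R KO and WT (limma adjusted p = 0.512). Its 5 probe sets gave differences of -0.02 to 0.22 between IL4R KO and WT, and the one at 0.22 did not pass (limma adjusted p = 0.216 over 45037 probe sets).

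The regulators Vhl and Hif1an varied by up to 0.34 log2 units in their brightest probe sets. Vhl, which marks hydroxylated alpha subunits for degradation, had 8.95 and 8.96 in IL4R KO + SMP8-IL4R, 8.92 and 9.04 in IL4R KO, and 9.10 and 9.27 in WT. Both IL4R -/- genotypes lay below WT without overlap. The differences from WT were -0.23 in IL4R KO + SMP8-IL4R (95% interval -0.43 to -0.03, limma adjusted p = 0.229) and -0.20 in IL4R KO (adjusted p = 0.216), and neither passed. The dimmer Vhl probe set gave -0.22 and -0.07. Hif1an, the asparagine hydroxylase, had 9.79 and 9.94 in IL4R KO + SMP8-IL4R, 9.85 and 9.90 in IL4R KO, and 9.72 and 9.74 in WT, and its differences of 0.14 from WT in both did not pass (limma adjusted p = 0.386 and 0.309). A second Hif1an probe set ranged over 0.59 log2 units and differed by 0.22 between IL4R KO and WT (limma adjusted p = 0.549 over 45037 probe sets). The third averaged 4.20, below the lower quartile of 5.30.

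Ndrg1 and Car9 are both induced by hypoxia in many cells. Ndrg1, a stress-responsive gene linked to differentiation, had 9.83 and 9.87 in IL4R KO + SMP8-IL4R, 9.91 and 9.72 in IL4R KO, and 9.49 and 9.52 in WT. Both IL4R -/- genotypes lay above WT without overlap, and they overlapped each other. The differences from WT were 0.34 in IL4R KO + SMP8-IL4R (95% interval 0.14 to 0.54, limma adjusted p = 0.103) and 0.31 in IL4R KO (95% interval 0.11 to 0.51, adjusted p = 0.0960), and neither passed. Without either IL4R KO pool the transgenic difference passed (limma adjusted p = 0.0217), and without IL4R KO pool 2 that of IL4R KO did (0.41, adjusted p = 0.0207). All 5 Ndrg1 probe sets lay higher than WT without overlap, by 0.06 to 0.47 in IL4R KO + SMP8-IL4R and by 0.27 to 0.41 in IL4R KO. They read the same RNA and so are not replicates, and 3 of them have endings (s_at or x_at) that mark possible binding to related transcripts. Over all probe sets 27.4% lay higher than WT without overlap in IL4R KO + SMP8-IL4R and 22.1% in IL4R KO. Car9, a membrane carbonic anhydrase that is a common hypoxia marker, was read by 1 probe set with 7.30 and 7.16 in IL4R KO + SMP8-IL4R, 7.16 and 7.28 in IL4R KO, and 7.22 and 7.26 in WT. All groups overlapped near the median of all values, and the interval of the IL4R KO difference from WT was -0.22 to 0.17 (limma adjusted p = 0.909).

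Across the 10 genes the groups did not overlap for 7 in IL4R KO against WT, for 4 in transgenic lungs against IL4R KO lungs, and for 6 in IL4R KO + SMP8-IL4R against WT. Among all genes tested these shares were 51.6%, 41.7% and 61.7%. Separation of 2 pools from 2 pools was therefore common across the array, and it is reported for single genes only as a description. The median difference of the 10 genes was 0.04 in IL4R KO minus WT, 0.002 in IL4R KO + SMP8-IL4R minus IL4R KO and 0.02 in IL4R KO + SMP8-IL4R minus WT, beside 0.02, -0.005 and 0.03 over all genes.

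Known targets of hypoxia-inducible factors were examined to see whether the wider programme moved with Egln3. Of 40 tested targets, 1 rose and 1 fell in IL4R KO against WT and 38 did not pass, with a median of 0.05. This is 5% of the list, close to the 4.7% of all genes that passed. At an unadjusted p under 0.05 by limma there were 11 of the 40, and the share over all genes at that level is not given here. Without overlap, 16 targets lay higher and 9 lower in IL4R KO than in WT, beside 51.6% of all genes in either direction. The 16 genes of glycolysis and glucose uptake ranged from -0.28 to 0.32 and none passed over all genes. Among them Pdk1, a kinase that limits pyruvate entry into mitochondria, had a difference of 0.32 between IL4R KO and WT (limma adjusted p = 0.0559). The hexokinase gene Hk2 differed by 0.31 (limma adjusted p = 0.199), and the phosphofructokinase genes Pfkl and Pfkp by 0.21 and -0.18. These values rested on single pools: Hk2 was 0.47 (adjusted p = 0.0271) and Pfkp -0.33 (adjusted p = 0.036) without IL4R KO pool 2, and 0.15 and -0.03 without IL4R KO pool 1, where Pfkl was 0.31 (adjusted p = 0.0365). Among 24 other targets the vasoconstrictor gene Edn1 had 10.12 and 10.12 in IL4R KO + SMP8-IL4R, 10.14 and 9.82 in IL4R KO, and 9.50 and 9.21 in WT. Its difference of 0.62 between IL4R KO and WT did not pass (limma adjusted p = 0.0696), and neither did that of 0.27 in the lysyl hydroxylase gene Plod2 (adjusted p = 0.0812). Without IL4R KO pool 2, Edn1 (0.79, adjusted p = 0.0242), Plod2 (0.31, adjusted p = 0.043) and Pdk1 (0.37, adjusted p = 0.0317) passed by limma. With the transgene none of the 40 passed in either comparison by limma, with 6 and 8 at an unadjusted p under 0.05, and medians of -0.02 and 0.04.

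The 2 targets that passed moved in opposite directions. Angptl4, a secreted inhibitor of lipoprotein lipase, had log2 values of 9.71 and 9.54 in IL4R KO + SMP8-IL4R, 10.72 and 10.33 in IL4R KO, and 9.31 and 9.60 in WT. It rose by 1.06 in IL4R KO against WT (SE 0.16, limma adjusted p = 0.0234). All 3 tested adipocyte markers rose as well, where 4.7% of all genes passed in either direction. The mean log2 value of the 4 markers with a probe set was 6.90 and 7.02 in IL4R KO + SMP8-IL4R, 7.77 and 7.86 in IL4R KO, and 6.44 and 6.59 in WT. Angptl4 is abundant in fat, and the part of adipose RNA in its difference was not tested. The transferrin receptor gene Tfrc had 11.13 and 11.04 in IL4R KO + SMP8-IL4R, 10.89 and 11.00 in IL4R KO, and 11.48 and 11.39 in WT, and it fell by 0.49 in IL4R KO against WT (SE 0.08, limma adjusted p = 0.0255). With the median of its probe sets Tfrc gave -0.55 and did not pass (limma adjusted p = 0.118). Neither Angptl4 nor Tfrc passed without any 1 of the transgenic or WT pools (limma adjusted p from 0.0575 to 0.228), and the number of targets passing was then 0, against 8 without IL4R KO pool 1 and 10 without the other IL4R KO pool.

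Of 12 tested regulators of the pathway, none passed in any of the 3 comparisons by limma, with 2 at an unadjusted p under 0.05 in each. The one with the lowest p in IL4R KO against WT was the ubiquitin ligase Siah1a, which had values of 9.76 and 9.80 in IL4R KO + SMP8-IL4R, 9.95 and 10.02 in IL4R KO, and 9.73 and 9.74 in WT, a difference of 0.25 (limma adjusted p = 0.0800) that passed without IL4R KO pool 1 (0.28, adjusted p = 0.0428). The partner of Vhl in its ligase, Eloc, differed by -0.12 and Cul2 by -0.09. P4htm, a membrane-bound prolyl hydroxylase, differed by 0.25 (adjusted p = 0.213).

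Collagen prolyl and lysyl hydroxylases use the same oxygen and iron chemistry as the Egln enzymes. Of 9 tested, only P3h2 passed in IL4R KO against WT, and it was lower. P3h2, a collagen prolyl hydroxylase, had 8.65 and 8.66 in IL4R KO + SMP8-IL4R, 8.61 and 8.69 in IL4R KO, and 9.12 and 9.09 in WT. It was lower than WT by -0.45 in IL4R KO + SMP8-IL4R (SE 0.06, limma adjusted p = 0.0214) and by -0.45 in IL4R KO (adjusted p = 0.0174), and both genotypes without native receptor overlapped each other. Against IL4R KO the transgenic difference was 0.002 in P3h2. The value of 1.13 in Egln3 is the difference by which that gene was chosen. It therefore does not set Egln3 apart from P3h2. The P3h2 call in IL4R KO did not hold without any 1 of the transgenic or WT pools (limma adjusted p from 0.057 to 0.183).

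**Figure D3:**
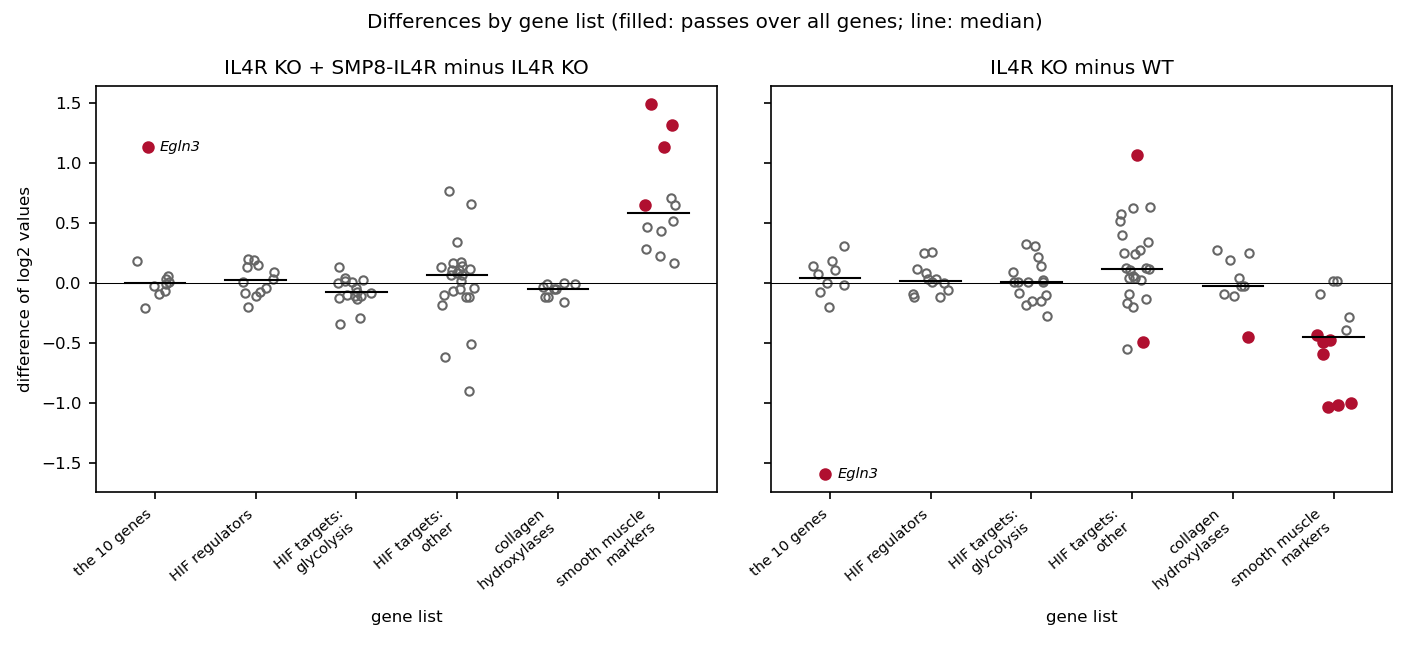
Difference of log2 values (y axis) of each tested gene, by gene list (x axis), for IL4R KO + SMP8-IL4R minus IL4R KO on the left and IL4R KO minus WT on the right, with filled points passing over all genes and lines at list medians. Egln3 lies at 1.13 and -1.59. Single hypoxia-inducible factor targets range from -0.90 to 0.76 on the left and from -0.55 to 1.06 on the right. Their list medians lie between -0.08 and 0.12, and those of smooth muscle markers at 0.58 and -0.45. The contrast on the left is the one by which Egln3 was chosen.

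Of 12 tested smooth muscle markers, 7 fell and none rose in IL4R KO against WT, with a median of -0.45 and a range of -1.03 to 0.02, where 2.77% of all genes were lower. With the transgene 4 rose and none fell against IL4R KO, with a median of 0.58, and 1 rose against WT, with a median of 0.16. Among all genes 0.101% and 2.84% passed in these comparisons, in that order. These lists were drawn up with earlier results of these data known, and the counts are no independent support. The mean log2 value over the 12 markers was 10.94 and 11.00 in IL4R KO + SMP8-IL4R, 10.28 and 10.33 in IL4R KO, and 10.80 and 10.77 in WT. Gamma smooth muscle actin, Actg2, had 11.38 and 11.39 in IL4R KO + SMP8-IL4R, 9.88 and 9.93 in IL4R KO, and 10.89 and 10.95 in WT. In whole lung RNA, fewer smooth muscle cells and less RNA per cell cannot be told apart, which cells held the Egln3 transcript was not measured, and the part of smooth muscle content in its difference was not tested. The smooth muscle counts changed when 1 pool was left out, which also leaves fewer arrays for the spread that all groups share. A WT pool is in neither group of transgenic minus IL4R KO. The 7 that fell became 3 without either WT pool, and the 4 that rose became 0 without any 1 transgenic or WT pool and 2 and 8 when the first or the second IL4R KO pool was left out.

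The 8 genes nearest to Egln3 over the 6 arrays were found by the root mean square difference of log2 values, each gene centred on its own mean. They were Map3k7cl (0.154), the membrane protein gene Tmem26 (0.172), the growth factor Igf1 (0.259), the matrix proteoglycan Vcan (0.264), the G protein regulator Rgs5 (0.265), the smooth muscle coactivator Myocd (0.282), the alarmin cytokine Il33 (0.295) and the decoy receptor Tnfrsf11b (0.316). The next of 11851 genes lay at 0.321, and a flat line would lie at 0.669 from Egln3. Map3k7cl had 7.93 and 8.06 in IL4R KO + SMP8-IL4R, 6.91 and 6.60 in IL4R KO, and 8.59 and 8.15 in WT. All 8 had lower means in IL4R KO than in WT, by -1.66 to -1.03. In transgenic minus WT lungs they spread more widely: Myocd and Rgs5 differed by 0.11 and 0.12, Vcan and Map3k7cl by -0.06 and -0.37, and Tmem26, Igf1, Il33 and Tnfrsf11b by -0.75, -0.76, -0.82 and -1.01. Egln3, at -0.46, lay between these. The nearest genes were chosen for their likeness on these arrays, so their differences carry no test.

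**Figure D4:**
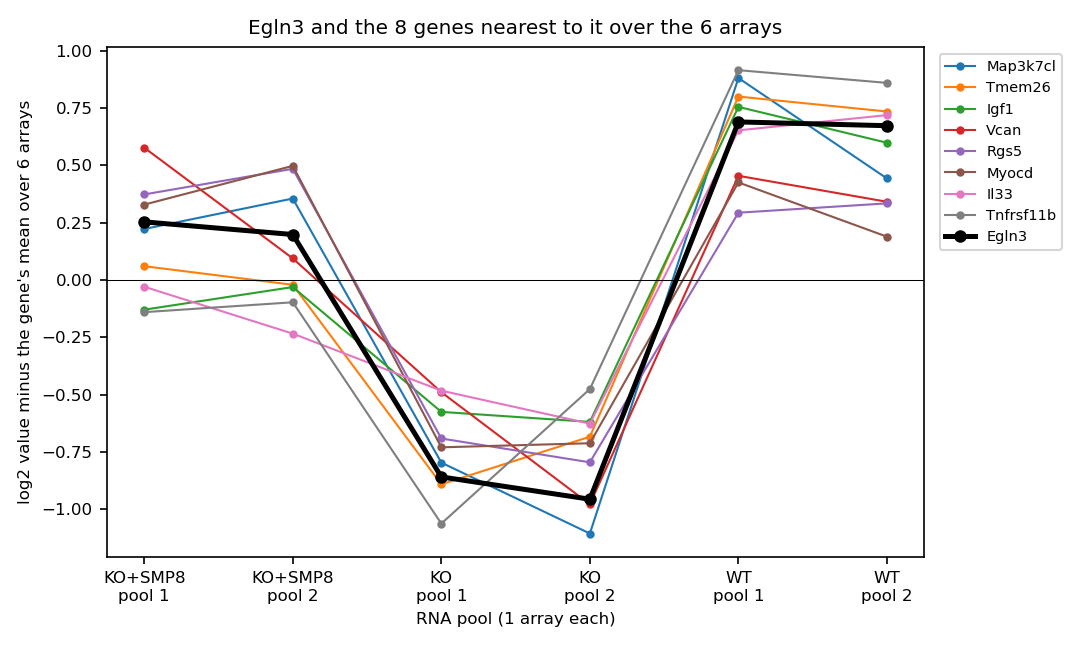
Log2 value minus the gene's own mean over 6 arrays (y axis) for Egln3 (thick black line) and the 8 genes nearest to it, in each RNA pool (x axis). All 9 genes are lowest in the IL4R KO pools. Egln3 is higher in WT than in transgenic pools, and Rgs5 and Myocd are not.

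Other features of the lungs moved between pools and touch these results. Hepatocyte markers had a mean of 9.92 in the first IL4R KO pool and 9.44 in the second WT pool, against 5.92 to 6.14 in the other 4 arrays. None of 6 tested passed by limma (0 at an unadjusted p under 0.05). With high values in 1 IL4R KO and 1 WT pool, that test had little room to pass. Without those 2 arrays the Egln3 difference between IL4R KO and WT was -1.64 (limma adjusted p = 0.00521). The 3 Y-linked genes had values of 3.33 to 4.27 in IL4R KO pool 2 and at least 6.89 in the other arrays. Xist had 7.93 in IL4R KO pool 1 and at least 10.08 elsewhere, and was highest, at 11.40, in IL4R KO pool 2. By these genes IL4R KO pool 2 read as RNA of females and IL4R KO pool 1 as RNA mainly of males. The labels give no reason, and the part of sex in the spread of the IL4R KO pools was not tested. None of these 4 sex-linked genes passed by limma (0 at an unadjusted p under 0.05). The 2 IL4R KO pools lay far apart, at 9.18 and 4.27 in Eif2s3y, so that test had little room to pass. It does not show that the groups were alike in sex. With pool 1 of IL4R KO left out, the differences from WT were -4.40 in Eif2s3y and 1.11 in Xist. With pool 2 left out they were 0.51 and -2.36. The Egln3 difference between IL4R KO and WT was -1.64 in the first case and -1.54 in the second. Of 10 cardiac markers, 8 rose in IL4R KO against WT, where 4.7% of all genes passed in either direction. Their array means were 10.20 and 10.30 in IL4R KO + SMP8-IL4R, 10.96 and 10.69 in IL4R KO, and 10.12 and 10.01 in WT. Egln3 is also expressed in heart, and the part of cardiac RNA in its values was not tested. Endothelial and alveolar type 2 markers, the lung cells rich in Epas1, had medians of 0.07 and 0.01 in IL4R KO against WT, with 1 of 10 and 0 of 7 passing by limma (2 and 5 at an unadjusted p under 0.05). Of 6 airway and alveolar type 1 markers 2 rose, and of 2 red cell markers none passed (1 at an unadjusted p under 0.05). The alveolar marker Sftpc had values of at least 14.73 on every array, near the highest value of all, 14.76. The 2 pools of a group differed from each other by more than 2-fold in 34 genes of IL4R KO + SMP8-IL4R lungs, 123 of IL4R KO lungs and 44 of WT lungs, and Egln3 was not among these in any group.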

How the data were processed

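RNA from 6 pools of 4 mice was hybridised to Affymetrix mouse expression arrays. The authors deposited log2 values from RMA, per the submitters' processing notes; its version is not given in the sources used here. RMA as a method corrects background, quantile-normalizes arrays and summarises probes. Normalization removes shifts shared by all genes, and summaries of bright probe sets can be compressed. Of 45101 probe sets, 64 array controls were left out. By the platform's annotation 34945 of the rest named 1 gene, 932 named several and 9160 none; of the first, 34741 were matched by Entrez identifier to RefSeq, and 0 symbols changed.

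For each gene the probe set of highest mean was used, and the 11861 of 18193 genes above the median of all values (7.10) on at least 2 arrays were tested. The filter kept all 10 genes described. limma 3.58.1 in R 4.3.3 fitted 1 mean per group over all 6 arrays, with Benjamini-Hochberg adjustment over all genes and a threshold of 0.05. A second fit without a filter covered all 45037 probe sets. Residual degrees of freedom came to 3, and the number of arrays limits the precision. On simulated differences of 1 log2 unit for IL4R KO minus WT, over 11861 genes, 87.4% were recovered, and 49% at 0.5.

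The genes, the 15 gene lists (126 of 156 genes tested) and the tests were chosen with earlier results of these data known. Beyond the 10 genes, the text names the tested genes with the lowest p in IL4R KO minus WT, up to 4 from each list, and the 8 nearest to Egln3. Il4ra, the targeted gene, and Sftpc, an alveolar gene, are named outside this rule. Promoter windows are from RefSeq, build GRCm38.p6; those of Ndrg1 and Epas1 are not used here. Alternatives changed the filter, the probe set summary, the variance prior, the centring, the arrays fitted and a replicate block. Pool numbers were taken from the labels; deviations of same-numbered pools from their group means correlated at 0.121, -0.509 and -0.0875 across the 3 pairs of groups, so the numbers were not taken to pair the pools.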

Additional observations from a re-analysis of the deposited data

How the results depend on the processing

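The lower Egln3 in IL4R KO than in WT passed under every alternative run, with differences of -1.645 to -1.54. The lower Egln3 in IL4R KO + SMP8-IL4R than in WT did not pass with the median of a gene's probe sets, over all probe sets, without any 1 transgenic or WT pool, or without the 2 arrays holding liver transcripts. Where 1 pool stands for a group, its spread is assumed to equal that of the others. A pool of the group outside a comparison enters it only by the filter, the shared spread and the adjustment. Leaving out either transgenic pool left the Angptl4, P3h2 and Car3 differences in IL4R KO minus WT at 1.06, -0.45 and 1.42, though their calls were lost. The cause of the other changes below was not tested.

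Genes passing in IL4R KO minus WT numbered 557, 300 with only the 2 groups and 110 to 1519 without 1 pool. In IL4R KO + SMP8-IL4R minus IL4R KO they numbered 12, with 5 without the filter, 7 each with the median of probe sets, centred arrays or all probe sets, 19 with an intensity trend, 0 with only the 2 groups and 0 to 177 without 1 pool. Against WT, transgenic lungs had 337, 910 with only the 2 groups and 77 to 910 without 1 pool. With the pool number as a replicate block these counts were 482, 10 and 276.

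Of the 10 genes, 1 passed in each comparison, which in IL4R KO + SMP8-IL4R minus IL4R KO restates the choice of Egln3. In IL4R KO minus WT this was 1 to 2 without 1 pool. In IL4R KO + SMP8-IL4R minus IL4R KO it was 0 with only the 2 groups and 0 to 1 without 1 pool. In IL4R KO + SMP8-IL4R minus WT it was 2 with only the 2 groups, 0 with the median of probe sets, with all probe sets and without the arrays holding liver transcripts, and 0 to 2 without 1 pool. The replicate block left 1, 1 and 1. Of their 27 probe sets 2, 1 and 0 passed in the same order of comparisons, also with the block. Without 1 pool these were 1 to 2, 0 to 2 and 0 to 1. The 1 became 0 with only the 2 groups and without the arrays holding liver transcripts, and the 0 became 1 with the trend and with only the 2 groups.

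The targets of hypoxia-inducible factors that passed in IL4R KO minus WT numbered 2, with 0 for the median of probe sets or only the 2 groups, 4 with the trend or the block, and 0 to 10 without 1 pool. In IL4R KO + SMP8-IL4R minus IL4R KO they numbered 0, and 0 to 3 without 1 pool. Against WT, the transgenic count was 0, with 3 for the trend or without the arrays holding liver transcripts, 4 with only the 2 groups, 1 with the block, and 0 to 4 without 1 pool. Smooth muscle markers passing in IL4R KO minus WT numbered 7, with 4 for the median of probe sets.

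Differences near 0 changed sign. Car9 gave 0.01393 in IL4R KO + SMP8-IL4R minus WT and 0.06448 in IL4R KO minus WT without the arrays holding liver transcripts, and -0.0806 to 0.06199 and -0.08253 to 0.04124 without 1 pool. Egln1 in IL4R KO + SMP8-IL4R minus WT gave -0.006458 with the median of probe sets, -0.0004195 without the arrays holding liver transcripts, and -0.0004195 to 0.08273 without 1 pool. Epas1 in IL4R KO minus WT gave 0.00855 with the median of probe sets, 0.008759 centred, and -0.03441 to 0.03266 without 1 pool. Hif1an gave -0.02669 in IL4R KO + SMP8-IL4R minus WT with the median of probe sets. Without 1 pool Arnt gave -0.05477 to 0.01988 in IL4R KO + SMP8-IL4R minus WT and Hif1a -0.2365 to 0.0836 in IL4R KO minus WT.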

Other observations

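Relatives of Car9 and Ndrg1 were also read. Of 7 tested carbonic anhydrases, enzymes that convert carbon dioxide to bicarbonate, 1 rose and 2 fell in IL4R KO against WT. Among all genes 4.7% passed there in either direction. Car2, a cytosolic form, had log2 values of 11.53 and 11.50 in IL4R KO + SMP8-IL4R, 11.25 and 11.58 in IL4R KO, and 12.52 and 12.55 in WT. It was lower than WT by -1.01 in IL4R KO + SMP8-IL4R (limma adjusted p = 0.0114) and by -1.12 in IL4R KO (adjusted p = 0.00662), and the IL4R -/- genotypes overlapped each other. Without either WT pool the call in IL4R KO did not hold (limma adjusted p of 0.0776 and 0.0767). Car8, a form without catalytic activity, fell by 0.73 in IL4R KO (limma adjusted p = 0.0257), a call lost without any 1 transgenic or WT pool. It was also lost with the median of the Car8 probe sets (-0.61, limma adjusted p = 0.0552). Car3, abundant in muscle and fat, had 11.79 and 11.94 in IL4R KO + SMP8-IL4R, 12.94 and 12.78 in IL4R KO, and 11.06 and 11.82 in WT. It rose by 1.42 in IL4R KO against WT (limma adjusted p = 0.0333), as did all 3 tested adipocyte markers; their part in the result was not tested. The Car3 call did not hold with the median of its probe sets (1.15, limma adjusted p = 0.0561) or with an intensity trend (adjusted p = 0.0643). It was also lost without either transgenic pool or IL4R KO pool 1.

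The 3 relatives of Ndrg1 stood higher in IL4R KO than in WT by values that did not pass by limma, with 0.43 for Ndrg2 (adjusted p = 0.071), 0.31 for Ndrg4 and 0.19 for Ndrg3, and with 2 of the 3 at an unadjusted p under 0.05.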
